A study of Mus musculus with 4 samples.

Results

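The integrated stress response and the amino acid transporters it controls were examined through 10 genes: Atf4, Atf3, Ddit3, Trib3, Asns, Sesn2, Ppp1r15a, Slc7a5, Slc7a11 and Slc3a2. They were chosen by gene symbol in the platform annotation, and all of their probe sets were taken, 15 of the 22690 on the array, for 10 of 12393 named genes. The arrays came from primary mouse embryonic fibroblasts of E14.5 embryos. In tri-CH1 cells 3 of the 4 alleles of p300 and CBP carry a CH1 deletion, both of p300 and a single CBP allele, so 1 intact CBP allele is left; wild-type cells carry none. CH1 is a protein-binding domain of these related coactivators, and HIF-1α is among its known partners. Subconfluent cells of each genotype spent 6 h at 37 °C under 0.1% oxygen (hypoxia) or 21% oxygen (normoxia), both with 5% carbon dioxide, in medium brought to that oxygen level beforehand. The 4 groups, tri-CH1 hypoxia, tri-CH1 normoxia, wild-type hypoxia and wild-type normoxia, had 1 array each. The labels do not say how many embryos gave the cells.

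In the integrated stress response, kinases that sense unfolded protein, missing amino acids, double-stranded RNA or heme shortage phosphorylate the initiation factor eIF2. General translation then slows while translation of the Atf4 mRNA increases, so ATF4 is controlled largely at the protein level. ATF4 is a transcription factor that binds, with C/EBP proteins, a DNA element called CARE and raises genes of amino acid uptake and synthesis as well as later stress factors such as ATF3 and CHOP, the product of Ddit3. Severe hypoxia is a known trigger of this pathway through the endoplasmic reticulum kinase PERK, and the question here is how these genes stood in hypoxia in cells with and without most CH1 domains.

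The values are scaled signals without unit, and the precision is limited by the number of arrays: with 1 array in each group there is no replicate error, no test was run, and differences between embryos, cultures or arrays cannot be told apart from those between groups. A gene was counted in a comparison if a compared array reached a signal of 500, signals under 200 were raised to 200, and rose, fell, higher and lower are used for differences of 2-fold or more by size. Between the 2 brightest probe sets of a gene, over 1505 genes, the SD of a log2 change was 0.29 for hypoxia in tri-CH1, 0.25 for hypoxia in wild type, 0.31 and 0.33 for the genotype in hypoxia and in normoxia, and 0.37 for the difference of the hypoxia changes. This spread holds the disagreement of probe sets on the same arrays and nothing else. The scale factors were 8.70 and 10.3 for tri-CH1 hypoxia and normoxia and 6.73 and 3.46 for wild-type hypoxia and normoxia, and the wild-type normoxia array was of another lot than the other 3. Hypoxia in wild type, the genotype in normoxia and the difference of the hypoxia changes all use that array. Of 7 genes known to rise in hypoxia, 7 rose in tri-CH1 and 7 in wild type, with median log2 changes of 3.10 and 2.94. All 8 fibroblast markers reached 500 on some array, with summed signals between 95700 and 109841, but Thy1 was 3.78-fold lower in tri-CH1 than in wild type in hypoxia and 3.43-fold lower in normoxia. In hypoxia Col1a1 and Dcn were 2.02-fold and 2.41-fold higher in tri-CH1, with a log2 value of 0.65 for another Col1a1 probe set. Pdgfrb, a growth factor receptor of fibroblasts, fell 2.58-fold with hypoxia in wild type, the comparison in which Slc7a5 and Slc3a2 had values below 0; its other probe set gave -0.94 on the log2 scale. Krt8, an epithelial keratin, fell at least 2.51-fold with hypoxia in tri-CH1. Markers at 500 on some array numbered 2 of 6 for epithelium (Krt8 and Krt18), 2 of 6 for macrophages and leukocytes, and 0 of 4 each for endothelium, neural cells and muscle. Epcam, Cdh1, Ptprc and Pecam1 were among those under 500 on every array. Summed signals ran from 896 to 1204 for the epithelial list and from 2020 to 2371 for the macrophage and leukocyte list. The part of these differences in the results below was not tested.

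Promoter sequences show which of the 10 genes carry the letters of the CARE core, TGATGNAA on either strand, close to their start. RefSeq windows of the GRCm38.p6 build, from 250 bases before the start to 50 after it, were at hand for Atf4, Atf3, Ddit3, Trib3, Asns, Sesn2, Ppp1r15a, Slc7a11 and Slc3a2. The core was in 4 of these 9 windows, and in 3.97% of all 32851 windows. Below, the matches are in capitals. Asns (chr6:7693160-7693459, minus strand) has it at bases -23 to -16 from the start, read in gene orientation. Atf3 (chr1:191183284-191183583, minus strand) has it at -110 to -103 and Trib3 (chr2:152344011-152344310, minus strand) at 15 to 22, both on the opposite strand. Slc7a11 (chr3:50443564-50443863, minus strand) has 2 matches that face each other, at -66 to -59 and at -47 to -40.
Asns promoter: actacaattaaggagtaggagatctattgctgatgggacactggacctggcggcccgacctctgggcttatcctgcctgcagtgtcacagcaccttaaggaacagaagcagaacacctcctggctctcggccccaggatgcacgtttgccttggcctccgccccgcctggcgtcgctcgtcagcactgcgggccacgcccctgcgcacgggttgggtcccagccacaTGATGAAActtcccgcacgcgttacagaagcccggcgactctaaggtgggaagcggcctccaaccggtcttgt
Atf3 promoter: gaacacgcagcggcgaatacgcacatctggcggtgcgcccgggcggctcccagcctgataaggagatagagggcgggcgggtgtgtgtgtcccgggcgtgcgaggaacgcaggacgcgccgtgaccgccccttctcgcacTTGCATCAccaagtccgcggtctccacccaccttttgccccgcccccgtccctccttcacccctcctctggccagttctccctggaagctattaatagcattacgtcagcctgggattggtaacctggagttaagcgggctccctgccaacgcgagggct
Trib3 promoter: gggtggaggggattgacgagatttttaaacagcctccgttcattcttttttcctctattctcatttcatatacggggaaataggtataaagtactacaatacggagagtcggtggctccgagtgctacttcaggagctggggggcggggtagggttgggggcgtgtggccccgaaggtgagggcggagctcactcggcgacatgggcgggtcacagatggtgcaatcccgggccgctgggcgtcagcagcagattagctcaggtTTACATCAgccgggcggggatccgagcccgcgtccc
Slc7a11 promoter: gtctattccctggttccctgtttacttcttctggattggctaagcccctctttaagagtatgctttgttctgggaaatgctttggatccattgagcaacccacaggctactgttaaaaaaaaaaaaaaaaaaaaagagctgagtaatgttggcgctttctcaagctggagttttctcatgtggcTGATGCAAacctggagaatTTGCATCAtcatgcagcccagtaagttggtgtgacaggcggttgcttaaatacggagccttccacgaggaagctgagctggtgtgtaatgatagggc
The fifth window is Ppp1r15a (chr7:45526219-45526518, minus strand), picked after its values were seen, because this gene had log2 changes of similar size with hypoxia in both genotypes. It holds the hypoxia response core ACGTG at -201 to -197 and at -160 to -156, in capitals here. The windows of Asns, Ddit3 and Slc3a2 hold that core too, so 4 of 9 do, against 19.6% of all windows on either strand. The log2 hypoxia changes of these 3 genes were small in both genotypes or unlike between them. A link between the core and the hypoxia changes was not tested.
Ppp1r15a promoter: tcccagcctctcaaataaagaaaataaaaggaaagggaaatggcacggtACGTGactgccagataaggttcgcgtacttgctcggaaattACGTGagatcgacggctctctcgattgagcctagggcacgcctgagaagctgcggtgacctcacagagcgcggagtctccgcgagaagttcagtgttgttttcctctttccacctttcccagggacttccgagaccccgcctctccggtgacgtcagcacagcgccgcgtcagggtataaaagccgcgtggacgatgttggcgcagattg
The letters CCACG, the 3′ end of the ER stress element, were in the windows of Atf4, Sesn2, Asns, Ppp1r15a and Slc7a11, 5 of 9, and in 32.8% of all windows. None of these matches overlapped another. A match says only that these letters are present.

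**Figure D1:**
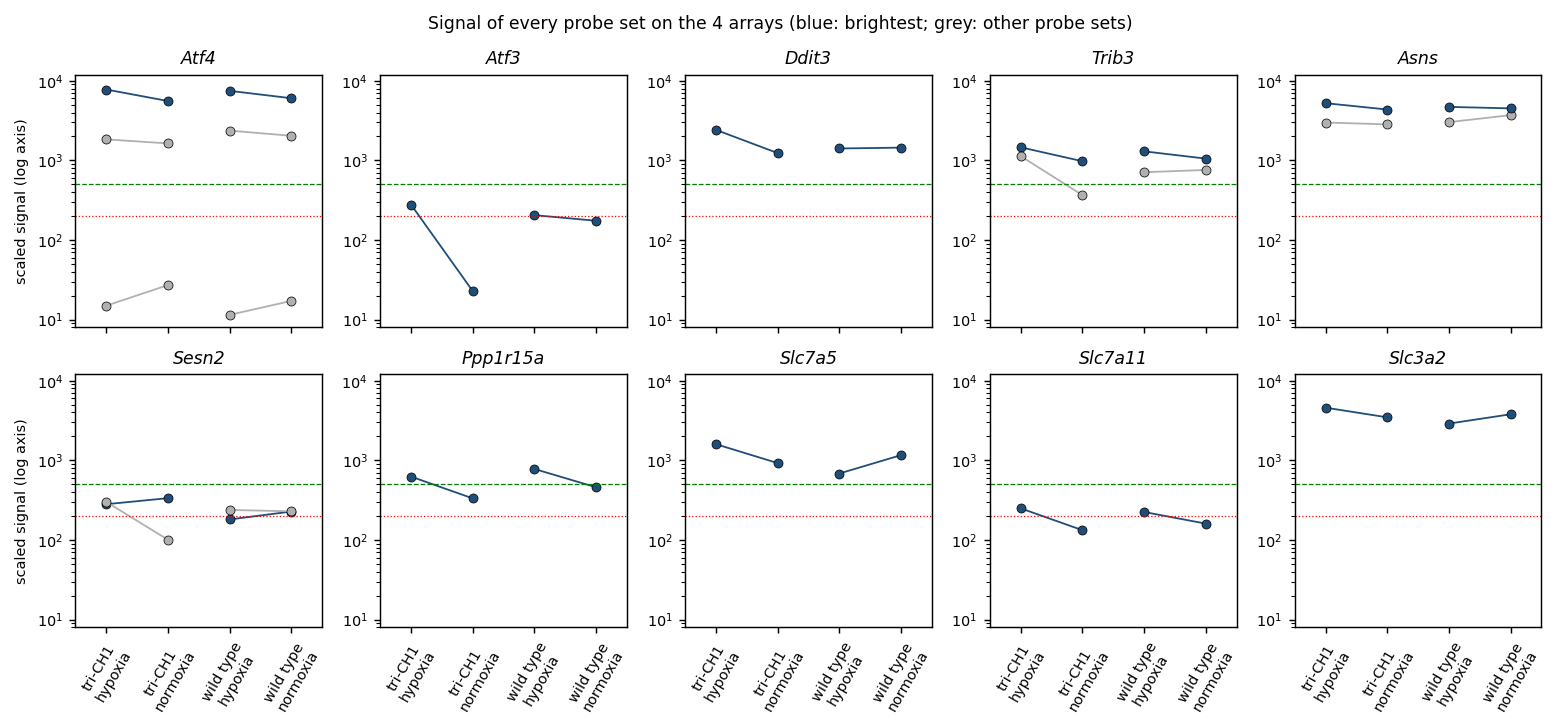
Scaled signal (log axis) of each probe set of the 10 genes on the 4 arrays, tri-CH1 hypoxia and normoxia on the left of each panel and wild-type hypoxia and normoxia on the right. Blue points are the brightest probe set of a gene and grey points its others; the dashed green line is the minimum signal of 500 and the dotted red line the floor of 200. Slc7a5 and Slc3a2 slope opposite ways in the genotypes, and Atf3, Sesn2 and Slc7a11 lie under 500 on every array.

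By the brightest probe set of each gene, none of the 7 genes bright enough to count rose or fell by 2-fold with hypoxia in either genotype; a dimmer Trib3 probe set did in tri-CH1, 3.08-fold. In tri-CH1 fibroblasts 0 of 7 rose and 0 fell, against 3.19% of all 4358 counted genes that rose and 0.987% that fell. The same 7 counted in wild type, where again 0 rose and 0 fell, against 3.05% and 1.19% of 4125 genes. The median log2 change of the 7 was 0.58 in tri-CH1, with values from 0.26 to 0.97, while the median of all counted genes was -0.04. In wild type their median was 0.06, with values from -0.77 to 0.76, and that of all counted genes was -0.06. The change was above 0 for 7 of 7 in tri-CH1 and for 4 of 7 in wild type, and for 45.8% and 43.1% of all counted genes. Some of these signs turned with the processing. With the mean over all probe sets Atf4 was at -0.07 in tri-CH1 and -0.02 in wild type. That mean takes in an Atf4 probe set between 11.5 and 27.2 on all arrays, and both brighter ones were above 0 in each genotype. The same mean put Asns at -0.11 in wild type, where median scaling also put Asns at -0.01 and cyclic loess put Ddit3 at 0.03. These 7 were the members that reached 500, so the counts do not speak for Atf3, Sesn2 and Slc7a11.

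**Figure D2:**
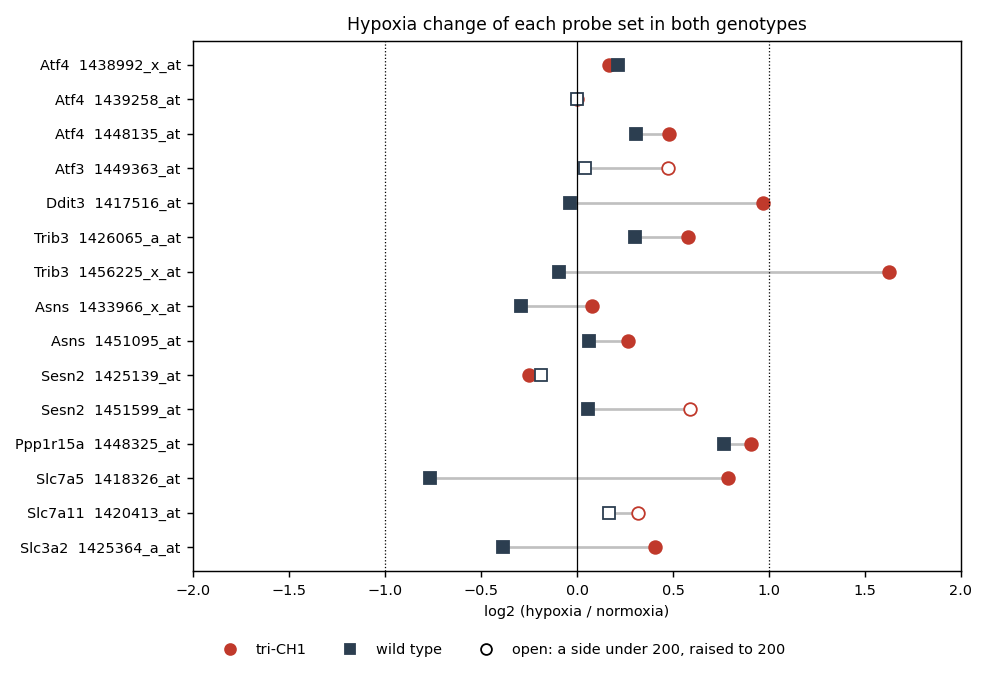
Log2 ratio of hypoxia over normoxia for each of the 15 probe sets after signals under 200 were raised to 200, as red circles for tri-CH1 and dark squares for wild type. Open symbols have a side under 200, and dotted lines mark 2-fold. Ddit3, the dimmer Trib3 probe set, Slc7a5 and Slc3a2 have the widest gaps between the genotypes.

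Among the transcription factors, Atf4, which directs the response, had a signal of 7777 in tri-CH1 hypoxia and 5578 in tri-CH1 normoxia, against 7489 in wild-type hypoxia and 6048 in wild-type normoxia, by its brightest probe set (1448135_at). Its log2 changes with hypoxia were 0.48 in tri-CH1 and 0.31 in wild type, both under 2-fold. A second Atf4 probe set gave 1839 and 1637 in tri-CH1 and 2368 and 2043 in wild type, hypoxia first in each pair, with log2 changes of 0.17 and 0.21. The remaining Atf4 probe set was between 11.5 and 27.2 on all 4 arrays and carries no level. Thus both measurable Atf4 probe sets had their higher signal in hypoxia in each genotype, by less than 2-fold.

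Ddit3 encodes CHOP, a transcription factor that can lead from prolonged stress to cell death. It had a signal of 2421 in tri-CH1 hypoxia and 1238 in tri-CH1 normoxia, against 1414 in wild-type hypoxia and 1449 in wild-type normoxia. The tri-CH1 hypoxia array stood apart above the other 3, which lay close together. The log2 change with hypoxia was 0.97 in tri-CH1, a 1.95-fold difference just under the limit, and -0.04 in wild type. In tri-CH1, 96.6% of all counted genes had a lower change.

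Atf3, an early stress-induced factor, was dim. Its signal was 277 in tri-CH1 hypoxia and 22.8 in tri-CH1 normoxia, against 206 in wild-type hypoxia and 175 in wild-type normoxia. No array reached 500, so Atf3 counted in no comparison. After the floor its log2 change was at least 0.47 in tri-CH1 and at least 0.04 in wild type; with no floor these were 3.60 and 0.23. The average background stated in the labels, multiplied by the scale factor, was 393 and 343 for tri-CH1 hypoxia and normoxia and 246 and 139 for wild-type hypoxia and normoxia, so the size of the change without a floor has no firm meaning.

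Trib3 encodes a pseudokinase that is induced by ATF4 and CHOP and restrains AKT and ATF4 itself. The brighter probe set (1426065_a_at) gave 1462 in tri-CH1 hypoxia and 978 in tri-CH1 normoxia, against 1302 in wild-type hypoxia and 1055 in wild-type normoxia. Its log2 changes with hypoxia were 0.58 in tri-CH1 and 0.30 in wild type. The dimmer probe set (1456225_x_at) gave 1130 and 366 in tri-CH1 hypoxia and normoxia, and 712 and 759 in wild-type hypoxia and normoxia. By this probe set the tri-CH1 ratio was 3.08-fold, or 1.63 on the log2 scale, against -0.09 in wild type. The probe sets of Trib3 thus gave the same direction in tri-CH1 but not the same size. With the mean of both, Trib3 was past 2-fold in tri-CH1, at 1.10 on the log2 scale. The low value behind that ratio is the tri-CH1 normoxia signal of 366, near the scaled background of 343 on that array.

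Ppp1r15a encodes GADD34, the stress-induced partner of the phosphatase that removes the phosphate from eIF2 and so ends the response. It had a signal of 624 in tri-CH1 hypoxia and 333 in tri-CH1 normoxia, against 780 in wild-type hypoxia and 459 in wild-type normoxia. Both hypoxia arrays were above both normoxia arrays. The log2 change was 0.91 in tri-CH1 and 0.76 in wild type, or 1.87-fold and 1.70-fold, so this gene had a change close to 2-fold in each genotype. However, its tri-CH1 normoxia signal was under the scaled background of 343 on that array. With a floor of 400 the tri-CH1 change was 0.64. Among all counted genes 96.2% had a lower change in tri-CH1 and 95.4% in wild type.

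Sesn2, whose product sestrin 2 senses leucine and restrains mTORC1, was dim in both probe sets. The one with the higher mean (1425139_at) gave 281 in tri-CH1 hypoxia and 335 in tri-CH1 normoxia, against 181 in wild-type hypoxia and 228 in wild-type normoxia. The other (1451599_at) gave 301 and 101 in tri-CH1 hypoxia and normoxia, against 238 and 229 in wild-type hypoxia and normoxia. After the floor the first gave -0.25 on the log2 scale for hypoxia in tri-CH1 and the second at least 0.59, so the probe sets of Sesn2 disagreed in sign and the gene has no settled direction here.

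Asns encodes asparagine synthetase, a classical ATF4 target whose promoter window holds the CARE core shown above. It had a signal of 5239 in tri-CH1 hypoxia and 4363 in tri-CH1 normoxia, against 4708 in wild-type hypoxia and 4509 in wild-type normoxia. The 4 arrays spanned 0.26 on the log2 scale, the smallest span of the 7 genes that counted. The log2 changes with hypoxia were 0.26 in tri-CH1 and 0.06 in wild type, and the other probe set gave 0.08 and -0.29.

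By brightest probe sets, the transporter gene Slc7a5 had, of the 7 counted genes, the widest gap between the hypoxia changes of the genotypes. Slc7a5 encodes LAT1, the light chain that carries leucine and other large neutral amino acids, and Slc3a2 encodes the heavy chain that LAT1 and xCT need to reach the cell surface. Slc7a5 (1418326_at) had a signal of 1597 in tri-CH1 hypoxia and 925 in tri-CH1 normoxia, against 684 in wild-type hypoxia and 1163 in wild-type normoxia. Its hypoxia array was the higher of the pair in tri-CH1 and the lower of the pair in wild type. The log2 changes were 0.79 in tri-CH1 and -0.77 in wild type, or 1.73-fold up and 1.70-fold down, each under the limit. The wild-type value uses the normoxia array of the other lot, so lot and oxygen cannot be told apart in it. In tri-CH1 94.9% of all counted genes had a lower change, and in wild type 2.93% did.

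Slc3a2 had the same arrangement at a smaller size. Its signal was 4591 in tri-CH1 hypoxia and 3471 in tri-CH1 normoxia, against 2899 in wild-type hypoxia and 3793 in wild-type normoxia. The log2 changes were 0.40 in tri-CH1 and -0.39 in wild type, the latter again with the array of the other lot. For Slc7a5 as for Slc3a2, tri-CH1 hypoxia was the highest array and wild-type hypoxia the lowest. Slc7a11 encodes xCT, the cystine and glutamate exchanger that feeds glutathione synthesis and is a target of ATF4 and of NRF2. It was dim, with 250 in tri-CH1 hypoxia and 133 in tri-CH1 normoxia, against 225 in wild-type hypoxia and 161 in wild-type normoxia. Both normoxia signals were under 200, so its log2 change was at least 0.32 in tri-CH1 and at least 0.17 in wild type.

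Between the genotypes, 1 gene differed by 2-fold by its brightest probe set, and this was Slc7a5 in hypoxia. In hypoxia 7 genes counted. Of these 1 was higher in tri-CH1 and 0 were lower, against 3.76% higher and 3.31% lower among all 4233 counted genes. Slc7a5 was 2.34-fold higher in tri-CH1 hypoxia than in wild-type hypoxia, 1.22 on the log2 scale, and 97.5% of counted genes had a lower value. Neither array of this comparison is the wild-type normoxia array of the other lot. Under the limit, Ddit3 had a log2 difference of 0.78 and Slc3a2 of 0.66, while Trib3, Asns and Atf4 had 0.17, 0.15 and 0.05. Ppp1r15a had -0.32. The median of the 7 was 0.17, and that of all counted genes 0.05.

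In normoxia, 6 genes counted, with 0 higher and 0 lower in tri-CH1, against 3.16% and 3.48% of all 4333 counted genes. All 6 had values below 0, from -0.33 for Slc7a5 to -0.05 for Asns, with a median of -0.12. The median of all counted genes was 0.03 and 53.5% of them were above 0. Asns was at 0.04 after quantile normalization and 0.02 after cyclic loess. Atf4 was at 0.07 with the mean over all its probe sets, the dim one included. The dimmer probe sets of Trib3 and Asns were outside the range of -0.33 to -0.05. Trib3 had a signal of 366 in tri-CH1 normoxia against 759 in wild-type normoxia, a log2 difference of -1.05, and Asns was at -0.39. Ppp1r15a, too dim to count here, was at -0.46. The dim Sesn2 was at 0.56 by one probe set and at -0.20 or lower by the other. The wild-type array of this comparison is the one of the other lot.

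**Figure D3:**
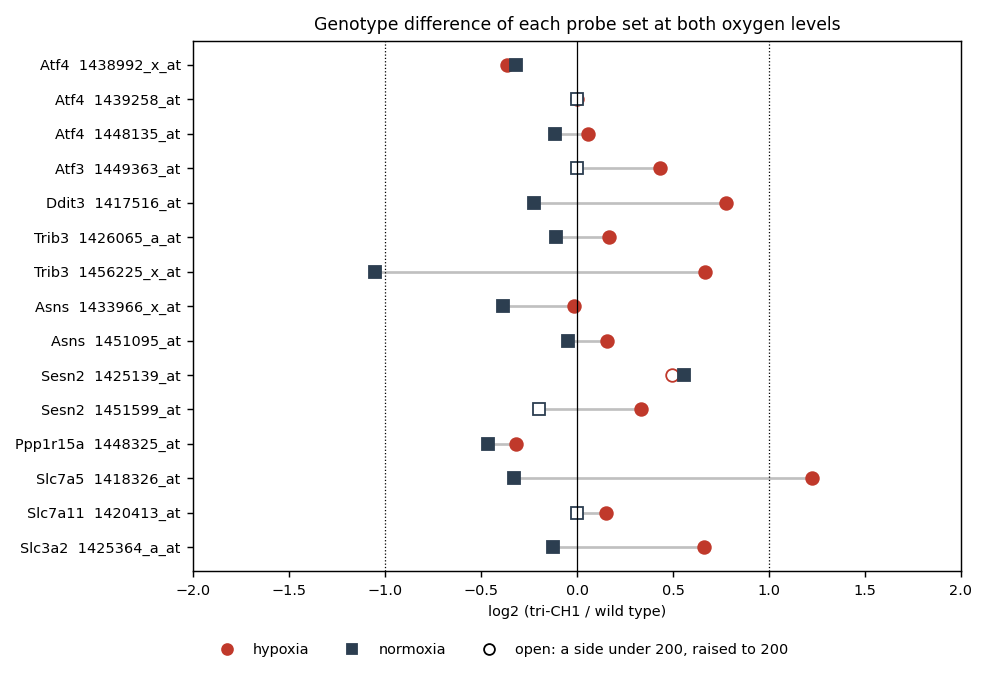
Log2 ratio of tri-CH1 over wild type for each of the 15 probe sets after signals under 200 were raised to 200, as red circles in hypoxia and dark squares in normoxia. Open symbols have a side under 200, and dotted lines mark 2-fold. Slc7a5 in hypoxia, at 1.22, is the brightest-probe-set value past 2-fold, and the dimmer Trib3 probe set in normoxia, at -1.05, is the other point past it.

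The difference of the hypoxia changes, tri-CH1 minus wild type, uses all 4 arrays and so shares arrays with each comparison above. The wild-type normoxia array of the other lot is among them. It reached 1 on the log2 scale for 2 of the 7 counted genes, Slc7a5 and Ddit3, against 1.77% of all 4645 counted genes, and was -1 or lower for 0 of 7, against 1.46%. Scaling the arrays to the same median turned the split of all genes, 82 higher and 68 lower, into 146 and 45. For Slc7a5 it was 1.55, the place 9 from the top among 4645 genes. For Ddit3 it was 1.00, at the limit itself, in place 81. Slc3a2 followed with 0.79, in place 178. The other values were 0.28 for Trib3, 0.20 for Asns, 0.17 for Atf4 and 0.14 for Ppp1r15a, which are below the SD of 0.37 between probe sets. The dimmer Trib3 probe set gave 1.72. All 7 were above 0, as were 53.0% of all counted genes. However, Ppp1r15a was at -0.12 with a floor of 400, and Atf4 at -0.05 with the mean over all its probe sets, the dim one included. The median was 0.28 for the 7 genes and 0.03 for all.

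**Figure D4:**
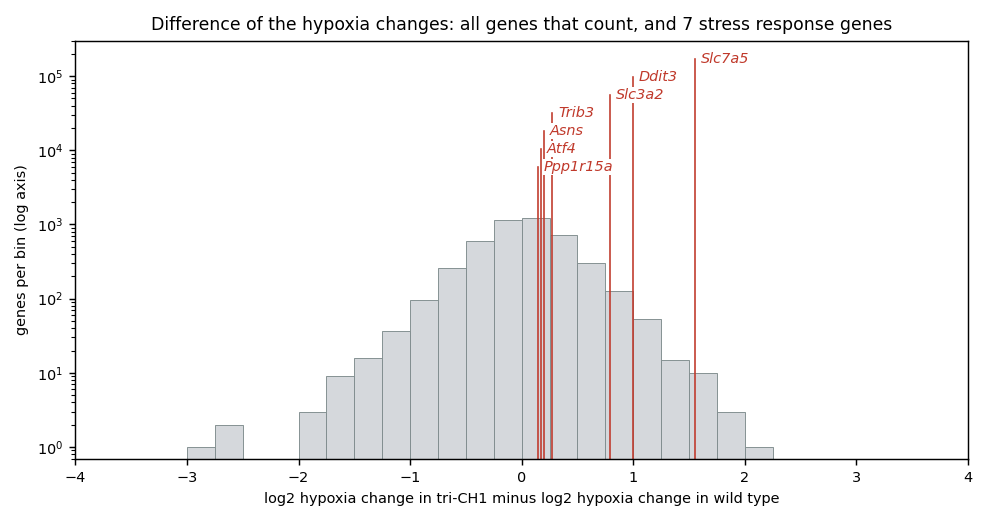
Number of genes (log axis) by the log2 hypoxia change in tri-CH1 minus that in wild type, in bins of 0.25, over the 4645 genes that counted. Red lines mark the 7 stress response genes that counted, and their height carries no value. Slc7a5 at 1.55 lies near the upper end and Ddit3 at 1.00 and Slc3a2 at 0.79 in the upper tail.

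Upstream of ATF4, the list of eIF2 kinases, eIF2 and eIF2B subunits and eIF2 phosphatase regulators held 12 counted genes, of which 0 rose and 0 fell in either genotype. Their median log2 changes were 0.02 in tri-CH1 and -0.07 in wild type. Of all counted genes 3.19% rose and 0.987% fell in tri-CH1, and 3.05% and 1.19% in wild type. A count of 0 in this list and in the lists below is near those shares. Eif2ak3, which encodes PERK, had a signal of 824 in tri-CH1 hypoxia and 615 in tri-CH1 normoxia, against 518 in wild-type hypoxia and 409 in wild-type normoxia, with log2 changes of 0.42 and 0.34. Ppp1r15b, the constitutive relative of Ppp1r15a, had log2 changes of 0.51 and 0.40. Between genotypes in hypoxia 1 of 11 counted genes was lower in tri-CH1 by its brightest probe set, against 3.31% of all counted genes. This was Eif2b2, an eIF2B subunit, which was 2.10-fold lower. Other Eif2b2 probe sets gave log2 differences of -0.35 and -0.59. Eif2s3x of the same list had -0.71 by its brightest probe set and -1.09 and -0.94 by the others. In normoxia these Eif2s3x values were -0.85, -0.96 and -0.82, and the brightest Eif2b2 probe set gave -0.47.

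Of 13 other counted targets of ATF4 or CHOP, 4 rose in tri-CH1 and 4 rose in wild type, against 3.19% and 3.05% of all counted genes, and 0 fell in either. They were Ddit4, Stc2, Vegfa and Ero1a in both genotypes, which are also known to respond to hypoxia through HIF. Ddit4, an mTORC1 inhibitor, rose 3.87-fold in tri-CH1 and 2.92-fold in wild type. Stc2, a secreted stanniocalcin, rose 5.05-fold in tri-CH1 and at least 3.69-fold in wild type. Ero1a rose 12.3-fold in tri-CH1 and 11.6-fold in wild type. Vegfa had its larger rise in wild type, 4.04-fold against 2.58-fold in tri-CH1. The other Vegfa probe set gave log2 changes of 2.35 in tri-CH1 and 1.61 in wild type. Among the rest, Nupr1, a stress-induced chromatin protein, resembled Ddit3: its signal was 1787 in tri-CH1 hypoxia and 1084 in tri-CH1 normoxia, against 1148 in wild-type hypoxia and 1194 in wild-type normoxia. Its log2 changes were 0.72 and -0.06, and a second Nupr1 probe set gave 0.92 and 0.15. Chac1, which breaks down glutathione, had log2 changes of 0.17 and -0.01, and Eif4ebp1, a translation repressor, 0.80 and 0.49. Herpud1 had 0.04 in tri-CH1 and 0.66 in wild type, but 0.73 and -0.05 by its other probe set. The 13 genes had medians of 0.29 in tri-CH1 and 0.22 in wild type. The difference of the changes was above 0 for 11 of them and below 0 for 2, Vegfa and Herpud1. By brightest probe sets 0 passed 2-fold between genotypes, but the other Vegfa probe set gave a log2 difference of -1.54 in normoxia.

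Among bZIP partners of these factors, Maff, a small MAF protein, rose at least 3.34-fold in tri-CH1 and 2.26-fold in wild type. Maff was alone in this among 11 counted genes, against 3.19% and 3.05% of all counted genes. It was 2.11-fold lower in tri-CH1 than in wild type in hypoxia and at least 3.13-fold lower in normoxia. Of all counted genes 3.31% and 3.48% were lower in these comparisons. Cebpg, a partner of ATF4 at CARE sites, had log2 changes of 0.36 in tri-CH1 and 0.07 in wild type, and 0.03 and 0.18 by a dimmer probe set. Of 17 counted sensors and chaperones of the unfolded protein response 0 rose and 0 fell in either genotype, with medians of -0.00 and -0.17. Hspa5, the main ER chaperone BiP, had log2 changes of 0.25 in tri-CH1 and 0.26 in wild type, and 0.08 and -0.15 by its other probe set.

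The cytosolic aminoacyl-tRNA synthetases, which load amino acids onto tRNAs and include known ATF4 targets, had 0 genes past 2-fold with hypoxia, of 17 counted in tri-CH1 and 15 in wild type. Their median log2 changes were 0.07 in tri-CH1 and -0.11 in wild type. The difference of the changes was above 0 for 13 of 17, with a median of 0.29, against 53.0% and 0.03 for all genes. Iars, with a difference of 0.98, was the farthest, but its other probe set gave -0.43. These counts are by brightest probe sets, and other probe sets turned the sign of further synthetases. Eprs had 0.54, but -0.69 and 0.02 by its others, and Qars had 0.38, but -0.35 and -0.50 by dimmer ones. Aars turned the opposite way, from -0.11 to 0.07. Farsa, a subunit of the phenylalanine enzyme, was at least 2.58-fold higher in tri-CH1 than in wild type in hypoxia, with a log2 difference of 0.84 in normoxia. In hypoxia it was 1 of 17 counted synthetases called higher, against 3.76% of all counted genes. By brightest probe sets, the 10 counted enzymes of serine, asparagine, proline and mitochondrial folate metabolism had 0 genes past 2-fold in any comparison. Their median changes were 0.18 in tri-CH1 and -0.04 in wild type. A dimmer Mthfd2 probe set was past 2-fold, with log2 changes of -1.12 in tri-CH1 and 0.52 in wild type and a difference of -1.63. The brightest Mthfd2 probe set gave 0.08 and -0.21.

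Among the other amino acid transporters, by the brightest probe set of each, 0 rose and 0 fell with hypoxia, of 11 counted in tri-CH1 and 10 in wild type, and the medians were -0.09 and -0.24. Slc1a5, a glutamine transporter, had a signal of 553 in tri-CH1 hypoxia and 310 in tri-CH1 normoxia, against 284 in wild-type hypoxia and 256 in wild-type normoxia, with log2 changes of 0.84 and 0.15. Slc1a4, a transporter of small neutral amino acids, had log2 changes of 0.86 in tri-CH1 and 0.61 in wild type by its brightest probe set, but its other probe sets gave 0.97 and 0.42, and 1.16 and -0.08. By the last of these, the dimmest, Slc1a4 was past 2-fold with hypoxia in tri-CH1, and its log2 difference between tri-CH1 and wild type in hypoxia was 1.08. The difference of its changes was thus 0.25, 0.55 or 1.24, depending on the probe set. Slc1a5 was too dim to count in the wild-type comparison. The difference of the changes was above 0 for 6 of the 11 genes of this list. Of the mTORC1 regulators, 6 counted with hypoxia in tri-CH1 and 5 in wild type, and by brightest probe sets 0 passed 2-fold in any comparison. The brightest Mtor probe set was under 500 on every array. The other Mtor probe set, between 241 and 508, gave log2 changes of -1.06 in tri-CH1 and 0.74 in wild type. Its log2 difference between tri-CH1 and wild type in hypoxia was -1.08. In the list of NRF2 targets and glutathione synthesis genes, Gclm, a subunit of the glutathione-making ligase, fell 2.28-fold in wild type. Its tri-CH1 value was -0.42 on the log2 scale.

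**Figure D5:**
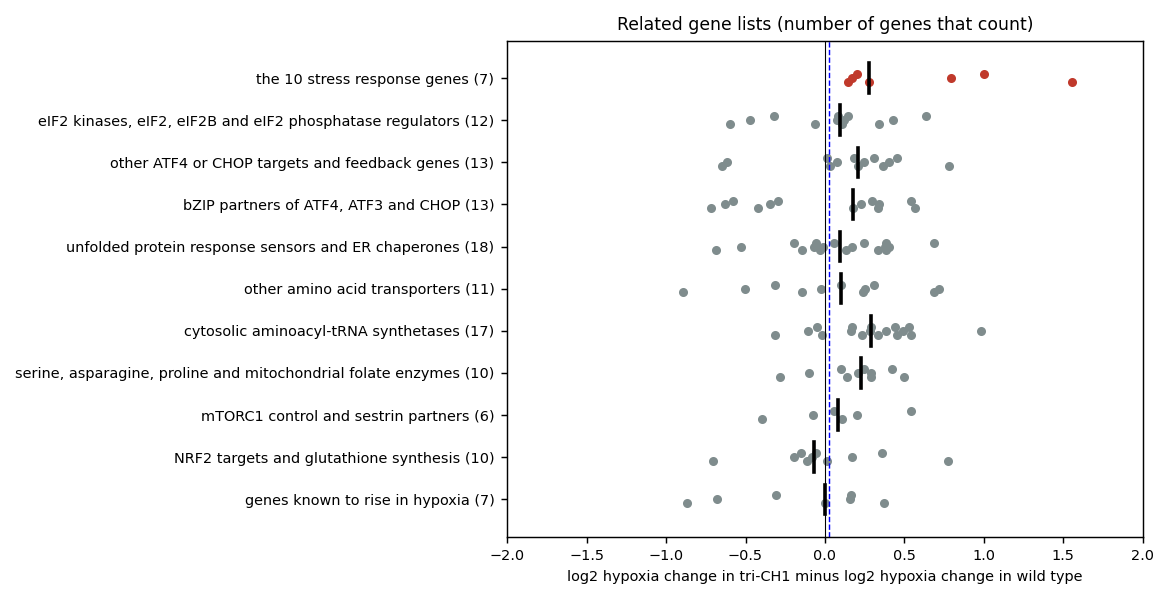
Log2 hypoxia change in tri-CH1 minus that in wild type for the counted genes of each list, 1 point a gene, with the list median as a black bar and the median of all counted genes, 0.03, as a dashed line. The stress response genes are in red at the top with a median of 0.28, and the synthetases have a median of 0.29.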

How the data were processed

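The authors deposited 1 signal intensity for each of 22690 probe sets and 4 arrays of biotin-labelled total RNA; per the labels these intensity values come from the Affymetrix statistical algorithm, with each array multiplied by 1 factor to a target of 500. The software version is not given in the sources used here. Of the probe sets, 20380 had 1 gene symbol, 691 several, 1555 none and 64 were controls; matching 20351 by gene number updated 0 symbols. Each gene took its probe set of highest mean signal. Signals under 200 were raised to 200, and a 2-fold difference counted where a compared array reached 500. The rule was tried on simulated data of bright genes with folds well away from 2. That trial does not show how the rule does for dim genes or for changes near the limit. Genes and lists were chosen with earlier results of these data known. All 10 genes are named with every probe set; from each list, genes past 2-fold were named, at most the 8 of largest change, and others were named after their values were seen. Alternatives were floors of 100, 400 and none, minimum signals of 250 and 1000, folds of 1.5 and 3, quantile, cyclic loess and median scaling, and other choices of probe set. Python 3.11.15, numpy 2.4.6, pandas 2.3.3, matplotlib 3.10.9, R 4.3.3 and limma 3.58.1 were used.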

Additional observations from a re-analysis of the deposited data

Results flagged for a closer look

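Slc7a5 and Slc3a2 had hypoxia changes of opposite sign in the genotypes, each at least 0.25 in size on the log2 scale. Subtracting the wild-type value from the tri-CH1 value gave 1.55 for Slc7a5 and 0.79 for Slc3a2. With 1 array in each group these differences were not tested, and both use the wild-type normoxia array of the other lot. The Trib3 probe set that was not used for the counts had a log2 change of 1.63 with hypoxia in tri-CH1 and a log2 difference of -1.05 between tri-CH1 and wild type in normoxia; both values use the tri-CH1 normoxia signal of 366.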

How the results depend on the processing

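The call of Slc7a5 as higher in tri-CH1 hypoxia than in wild-type hypoxia was kept under every alternative except the 3-fold limit, with log2 values from 1.15 to 1.22. At 3-fold 0 of the 7 counted stress response genes were called higher, against 1.25% of all counted genes. The difference of the hypoxia changes of Slc7a5 ran from 1.50 to 1.70, also kept except at 3-fold. There 0 of the 7 were called higher, against 0.172% of all counted genes. Ddit3 was at the limit, and its difference ran from 0.94 to 1.14. Quantile normalization and cyclic loess, at 0.99 and 0.94, left 1 of 7 called there, Slc7a5, against 1.77% and 1.61% of all counted genes. With hypoxia in tri-CH1, scaling to the same median called 1 of 7, Ddit3, at 1.03, against 3.65% of all counted genes. The mean over all probe sets, or over those at 500 on some array, called 1 of 7, Trib3, at 1.10, against 3.49% and 2.98%. The latter mean was chosen after seeing the data. At 1.5-fold, 3 genes were called higher with hypoxia in tri-CH1 (Ddit3, Ppp1r15a and Slc7a5), 1 higher in wild type (Ppp1r15a) and 1 lower (Slc7a5), and 3 higher in tri-CH1 than in wild type in hypoxia (Ddit3, Slc7a5 and Slc3a2), against 8.56%, 6.91%, 6.79% and 10.9% of all counted genes. The other 55 of 65 alternative counts higher, and 64 of 65 lower, stayed within 1.5 times. Median scaling moved the median of all genes to -0.14 for hypoxia in wild type, -0.21 for the genotype in normoxia and 0.18 for the difference, where the split of higher and lower genes went to 116 and 72 (126 and 49 as reported), 81 and 262 (137 and 151) and 146 and 45 (82 and 68). The median difference of the members went to 0.79 with either mean over probe sets. With no floor the difference for Atf3 was 3.37, against 0.43. No paired analysis was possible because each group has 1 array. A signal under 500 limits Atf3, Sesn2 and Slc7a11. The cause of these shifts was not tested.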

Other observations

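Light chains other than Slc7a5 and Slc7a11 that pair with the Slc3a2 heavy chain included 1 that reached 500. Slc7a6 had a signal of 512 in tri-CH1 hypoxia and 720 in tri-CH1 normoxia, against 486 in wild-type hypoxia and 617 in wild-type normoxia, with log2 changes of -0.49 and -0.34. Its other probe set, with 531 and 520 in tri-CH1 hypoxia and normoxia and 361 and 507 in wild-type hypoxia and normoxia, gave 0.03 and -0.49, so the difference of the changes was -0.15 by the first and 0.52 by the second. Slc7a7, Slc7a8 and Slc7a10 stayed under 500 on every array. Among transporters without a heavy chain, Slc38a4 was 2.08-fold higher and the cationic amino acid transporter Slc7a3 2.23-fold lower in tri-CH1 than in wild type in normoxia, the comparison that uses the array of the other lot. A dimmer Slc38a4 probe set gave a log2 difference of 0.86. Of the NRF2 targets, Nqo1 and Hmox1 were 2.18-fold and 2.0-fold higher in tri-CH1 in normoxia.

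By root mean square distance between centred log2 profiles over the 4 arrays, the genes nearest to Slc7a5 among 4644 were Cnot3 at 0.040, Sorbs3 at 0.048 and Emc10 at 0.11. Cnot3 had a signal of 705 in tri-CH1 hypoxia and 394 in tri-CH1 normoxia, against 308 in wild-type hypoxia and 534 in wild-type normoxia. The genes nearest to Ppp1r15a were Aldoa, a glycolytic aldolase, at 0.059, Kif17 at 0.061 and Atp7a, a copper transporter, at 0.073. These distances describe the 4 arrays only.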
